A study of Mus musculus with 7 samples.

Results

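The 9 genes described here encode the peroxisome proliferator-activated receptors (*Pparg*, *Ppara* and *Ppard*), the PGC-1 coactivators (*Ppargc1a* and *Ppargc1b*), and the retinoid X receptors (*Rxra* and *Rxrb*) and retinoic acid receptors (*Rara* and *Rarg*) expressed in the libraries. They are 9 of the 21928 genes counted. The group was drawn up around *Pparg* and chosen by its abundance in wild type and *Meioc* knockout in these same libraries, so their genotype values are given as a description, without p values, and no test of genotype is read for them. Genes were taken as expressed when 3 or more of the 7 libraries had a TPM of 1 or higher, where TPM is an abundance corrected for transcript length and set to a fixed total in each library. Of the 9 genes, 8 passed this filter, among 13630 genes in all. *Ppargc1b* did not pass, and neither did the remaining family members *Rarb* and *Rxrg*.

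The libraries came from preleptotene-enriched testes of C57BL/6N pups, 4 wild type and 3 *Meioc*-null. MEIOC is a germ cell protein needed for a timely transition from mitosis to meiosis, and the study asked how its loss changes transcript abundance at that transition. Pups of both genotypes were dosed from P2 to P8 with WIN18446 (0.1 mg/g), which blocks the synthesis of retinoic acid, and on P9 with retinoic acid itself (0.0125 mg/g). Tissue was taken 6.75 days after that dose, each library holds RNA of 1.5 testes of 1 pup, and ribosomal RNA was depleted. The null pups carry the *Meioc* tm1.1Dpc allele. All libraries therefore come from animals that were given a ligand of the retinoic acid receptors, and none from an untreated animal.

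PPARs are nuclear receptors that bind fatty acids and their derivatives, and they sit on DNA as heterodimers with an RXR. PPARG is best known as the master regulator of adipocyte differentiation and lipid storage, PPARA as an activator of fatty acid oxidation in liver and heart, and PPARD as a more widely expressed regulator of lipid use. RARs also pair with RXRs, and in the testis they carry the retinoic acid signal that drives spermatogonial differentiation and meiotic initiation; RARA acts mainly in Sertoli cells and RARG in spermatogonia. PGC-1 proteins bind PPARs and other receptors and raise the transcription of mitochondrial genes.

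Library depth ranged from 12537852 to 20552702 estimated counts. Values in CPM are counts relative to library size after TMM scaling for composition, and 3 counts correspond to between 0.151 and 0.237 CPM. *Meioc* itself was counted at 468 to 720 CPM in wild type and at 300 to 413 CPM in the null, in keeping with the labels, although transcripts of the null allele were still counted. Over all tested genes, 11.1% were called at an adjusted p under 0.05 by the quasi-likelihood test of edgeR, adjusted by Benjamini-Hochberg. Log2 fold changes are wild type over *Meioc* knockout. In whole testes, fewer cells of a type and less RNA per cell cannot be told apart.

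*Pparg* (ENSMUSG00000000440.12) lies on the forward strand of mouse chromosome 6 at chr6:115360951-115490399 (GRCm38) and is represented in the files by 3 protein-coding transcripts that begin at separate starts. Their starts matter because they separate the widely expressed form of the receptor from the adipocyte form. *Pparg-202* begins farthest upstream and encodes PPARG1, the form found in many tissues. *Pparg-201* begins far downstream at an exon of its own and encodes PPARG2, the longer protein typical of adipocytes. *Pparg-204* begins shortly after *Pparg-202*. The 57 bases that precede each annotated start in the RefSeq promoter sequences of GRCm38.p6 are shown 5′ to 3′ so that the 3 starts can be compared; they lie at chr6:115360894-115360950, chr6:115362235-115362291 and chr6:115422009-115422065, all on the forward strand.
Pparg-202: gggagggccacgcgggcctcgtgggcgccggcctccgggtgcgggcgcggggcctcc
Pparg-204: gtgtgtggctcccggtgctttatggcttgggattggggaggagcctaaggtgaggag
Pparg-201: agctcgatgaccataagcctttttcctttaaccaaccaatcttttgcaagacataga
The stretch before *Pparg-202* is 87.7% G and C, that before *Pparg-204* 59.6%, and that before *Pparg-201* 38.6%. In the whole 250 bases before each RefSeq start the shares were 82.4%, 63.6% and 40.8%, against a median of 52.4% over all promoter windows. The upstream start is therefore in GC-rich sequence and the adipocyte start in AT-rich sequence.

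The promoter windows, here the 250 bases before each RefSeq start, were searched on both strands for the letters CNCCTCAG, used for the STRA8-MEIOSIN binding motif; these letters and those of the other motifs came from general knowledge, not from a motif file. STRA8 and MEIOSIN form the transcription factor that activates meiotic genes in response to retinoic acid. Of the 16 windows of the 8 genes that have one, 1 held the motif, and it was the window of the upstream *Pparg* start. The match lies 34 bases before the RefSeq start and inside the annotated exon of *Pparg-202*, and is given with its surroundings (chr6:115361099-115361128, forward strand, motif in capitals).
Pparg-202: cgccaagccgcCGCCTCAGgtcagagtcgc
The last letters of the motif overlap a match to the nuclear receptor half-site AGGTCA, the word that RXR heterodimers read in pairs. Among all 32851 windows, 6.42% held the STRA8-MEIOSIN letters and 14% the half-site. No window of the 9 genes held 2 half-sites in the same direction (AGGTCA, a gap, AGGTCA) spaced by 1 base (0.0335% of all windows) or by 5 bases (0.00913%). The E2F motif GCGGGAA (3.82% of all windows) was in none of them, and the E-box CACGTG (6.02%) was in 1 window of *Rara*. A match describes the letters of these windows and is not evidence of binding.

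*Pparg* was higher in wild type, but 1 of the 4 wild-type pups did not share the difference. The gene was counted at 4.82, 21.9, 40.6 and 51.6 CPM in wild-type replicates 1 to 4. In *Meioc*-null replicates 1 to 3 it was counted at 4.70, 2.97 and 2.56 CPM. Wild-type replicates 2 to 4 were far above the null libraries, with a mean of 38.0 CPM, and wild-type replicate 1 was level with *Meioc*-null replicate 1. Behind these values stood 61, 313, 601 and 1023 estimated counts in wild type and 88, 41 and 47 in the null. The 95% exact Poisson intervals, which cover counting error only, were 3.69 to 6.19 CPM for wild-type replicate 1 and 3.77 to 5.79 CPM for *Meioc*-null replicate 1, so these libraries cannot be ordered at this depth.

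The mean of *Pparg* was 29.7 CPM in wild type (SD 20.65, n = 4) and 3.41 CPM in the null (SD 1.14, n = 3). The fitted log2 fold change was 3.12 (standard error 0.67). The groups do not overlap in CPM only by the small gap between wild-type replicate 1 and *Meioc*-null replicate 1. Without TMM scaling both libraries stood at almost the same value, 4.87 and 4.86 CPM. In TPM the groups overlap, since *Pparg* was at 4.87, 19.6, 36.5 and 48.0 TPM in wild type and at 5.16, 3.65 and 2.69 TPM in the null. Within wild type, replicate 4 was 10.7 times replicate 1, a spread larger than that of any other of the 8 genes that passed the filter. The log2 fold change was 3.47 without wild-type replicate 1 and 2.70 without wild-type replicate 4, the lowest when 1 of the 7 libraries was left out.

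**Figure D1:**
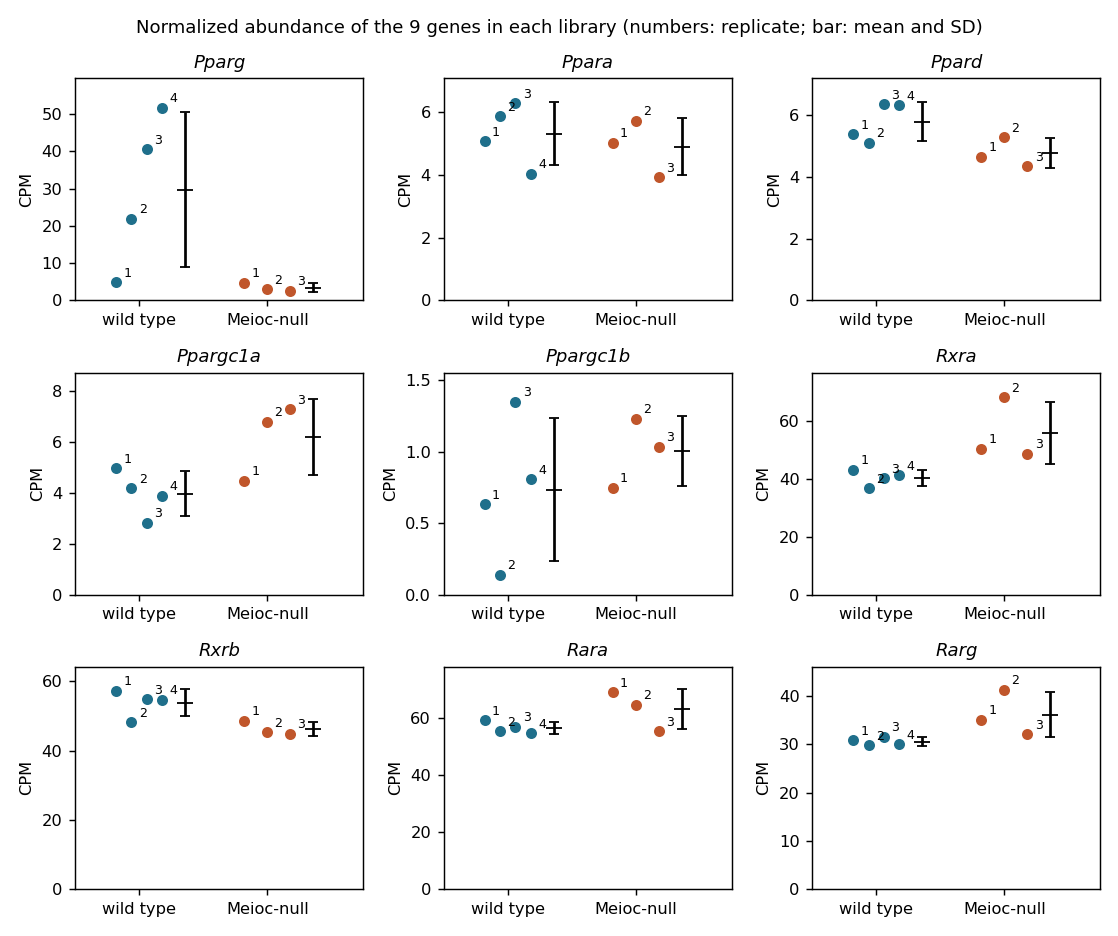
CPM of each of the 9 genes (vertical axes, from 0, differing between panels) in the 4 wild-type (blue) and 3 Meioc-null (orange) libraries, with the replicate number beside each point and the mean and SD beside each group. Pparg runs from 4.82 to 51.6 CPM within wild type and stays at or under 4.70 CPM in the null, while no other gene above the filter spreads as widely within wild type.

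At least 89.6% of the *Pparg* counts of each library were assigned to the PPARG1 transcript. *Pparg-202* held 61, 313, 601 and 924.6 estimated counts in wild type, and 78.9, 37.2 and 47 in the null. *Pparg-204* held 98.4 counts in wild-type replicate 4 and at most 3.8 in any other library. The adipocyte transcript *Pparg-201* was at 0 counts in all 4 wild-type libraries and in 2 of the 3 null libraries, and at 8.67 counts in *Meioc*-null replicate 1. The difference between the groups therefore lay in the transcript of the upstream start. These assignments rest on the parts of each transcript that no other *Pparg* transcript shares: 418 of the 2095 words of 31 bases in *Pparg-202* are its own, against 126 of 1737 in *Pparg-201* and 124 of 1796 in *Pparg-204*, and kallisto divides the remaining reads by estimation.

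**Figure D2:**
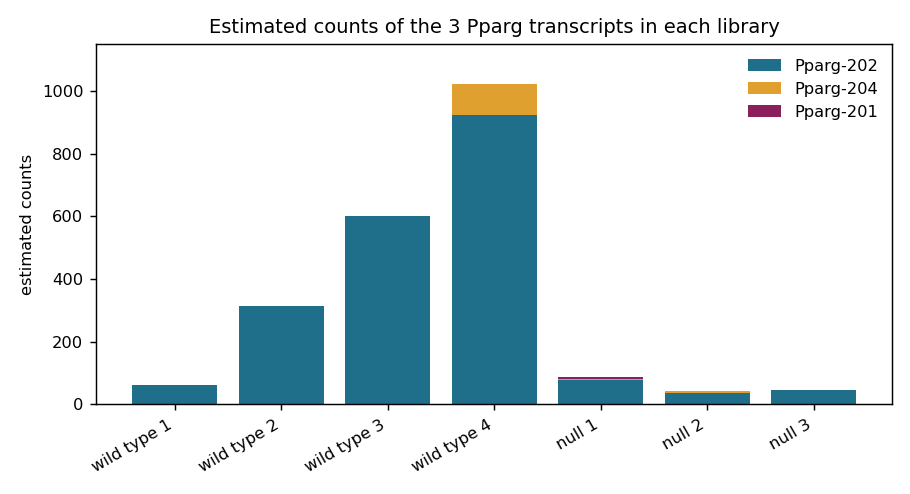
Estimated counts (vertical axis, from 0, not scaled for library size) of the 3 Pparg transcripts stacked in each library. Pparg-202 fills nearly the whole of every bar, Pparg-204 adds 98.4 counts in wild type 4, and Pparg-201 adds 8.67 counts in null 1 and none in wild type.

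The other PPAR genes were low and differed little between the groups. *Ppara* (chr15:85734983-85802819) was counted at 5.06, 5.87, 6.28 and 4.04 CPM in wild type and at 5.02, 5.72 and 3.92 CPM in the null. Its libraries overlap fully, and its log2 fold change was 0.12 (standard error 0.21), which became -0.23 on the log2(TPM + 1) scale and -0.02 at the lowest with 1 library left out. *Ppard* (chr17:28232700-28301474) was counted at 5.37, 5.10, 6.35 and 6.31 CPM in wild type and at 4.65, 5.29 and 4.35 CPM in the null. The groups overlap at wild-type replicate 2, and the log2 fold change was 0.29 (standard error 0.16), or 0.04 on the log2(TPM + 1) scale.

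*Pparg* was the part of the PPAR family that varied. Per transcript length, it made up 52.8%, 83.6%, 88.1% and 93.5% of the summed TPM of the 3 PPAR genes in wild-type replicates 1 to 4. In the null libraries its share was 53.2%, 39.8% and 41.8%. The summed TPM of the family was 9.21, 23.5, 41.5 and 51.3 in wild type and 9.69, 9.17 and 6.42 in the null. Wild-type replicate 1 thus had the PPAR composition of *Meioc*-null replicate 1 in both its share and its total.

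The value of *Ppargc1a* had the opposite sign to that of *Pparg*, and *Ppargc1b* was too low to compare. *Ppargc1a* (chr5:51454250-51567726), which encodes the inducible regulator of mitochondrial biogenesis PGC-1α, was counted at 4.98, 4.19, 2.84 and 3.89 CPM in wild type. In the null it was counted at 4.49, 6.81 and 7.29 CPM. *Meioc*-null replicate 1 lies within the wild-type range and the other null libraries above it, and the log2 fold change was -0.64 (standard error 0.24). Leaving out *Meioc*-null replicate 1 moved this value to -0.83. *Ppargc1b* had between 2 and 19.9 estimated counts per library. Its 0.632, 0.140, 1.35 and 0.807 CPM in wild type span its 0.748, 1.23 and 1.03 CPM in the null, and at 0.245 and 0.381 TPM on average it lies below the filter. The related coactivator *Pprc1* was counted at 35.98 to 61.1 CPM in wild type and 43.5 to 77.7 CPM in the null (log2 fold change -0.19, standard error 0.22, adjusted p = 0.59 by the same edgeR test).

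*Rxra* (chr2:27676440-27762957), which encodes a common heterodimer partner of PPARs and RARs, was lower in wild type. It was counted at 43.2, 36.8, 40.2 and 41.3 CPM in wild type and at 50.4, 68.1 and 48.6 CPM in the null. All null libraries lie above all wild-type libraries, with *Meioc*-null replicate 2 highest. The log2 fold change was -0.46 (standard error 0.12), and leaving out *Meioc*-null replicate 2 moved it to -0.30. Most of its counts were assigned to *Rxra-201*, between 92.8% and 100% in each library.

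*Rxrb* (chr17:34031812-34038399) encodes the other RXR expressed here. It was counted at 57.3, 48.2, 54.9 and 54.8 CPM in wild type and at 48.6, 45.4 and 44.9 CPM in the null. Wild-type replicate 2 falls just under *Meioc*-null replicate 1, and its log2 fold change was 0.22 (standard error 0.08), which became -0.01 on the log2(TPM + 1) scale. Per transcript length, *Rxra* made up 27.9% to 30.7% of the summed TPM of both RXR genes in wild type and 36.3% to 44.9% in the null. The groups do not overlap in this share, which does not depend on scaling between libraries. The share is made from the values that chose the genes, so it is a description and no test. *Rxrg* had at most 5 estimated counts in any library.

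The log2 fold changes of both retinoic acid receptor genes were small and below 0 on every scale used. *Rara* (chr11:98927818-98974942) was counted at 59.3, 55.5, 57.1 and 54.7 CPM in wild type and at 69.2, 64.8 and 55.4 CPM in the null, where *Meioc*-null replicate 3 lies within the wild-type range. Its log2 fold change was -0.16 (standard error 0.09). *Rarg* (chr15:102234938-102257517) was counted at 30.9, 29.8, 31.6 and 29.98 CPM in wild type and at 35.1, 41.3 and 32.2 CPM in the null. Here the groups do not overlap, although *Meioc*-null replicate 3 is close to wild-type replicate 3, and the log2 fold change was -0.24 (standard error 0.10). *Rara* made up 64.9% to 66.3% of the summed TPM of both genes in wild type and 60.7% to 66.5% in the null. *Rarb*, the RAR gene that retinoic acid induces in many cell types, had at most 8 estimated counts in any library.

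**Figure D3:**
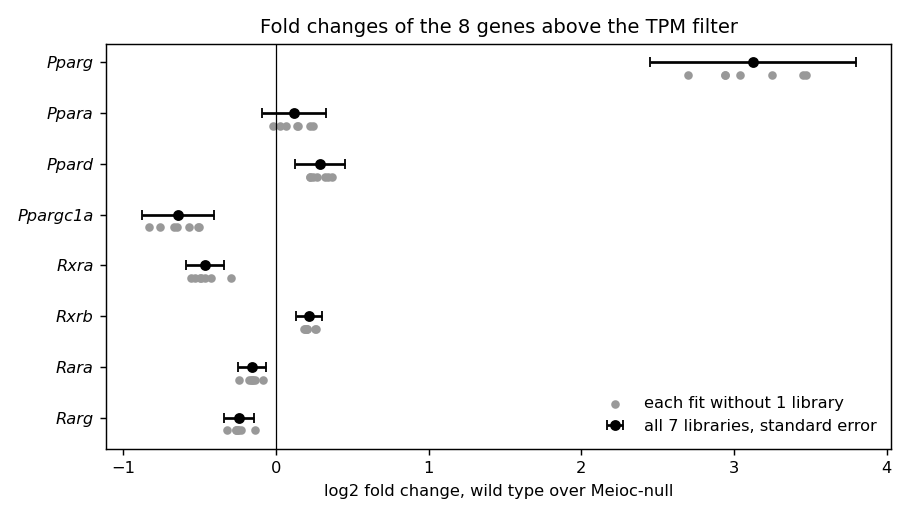
Log2 fold change of wild type over Meioc-null (horizontal axis) for the 8 genes above the TPM filter, with the standard error as a bar (black, all 7 libraries) and the 7 values obtained by leaving out each library (grey). Pparg stands at 3.12, with grey points from 2.70 to 3.47, and every other gene lies between -0.64 and 0.29.

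Of the 8 genes that passed the filter, the fit over all genes called 2, *Pparg* higher and *Rxra* lower in wild type, beside 11.1% of all tested genes. Neither was called when wild-type replicate 2, 3 or 4 was left out, nor when *Meioc*-null replicate 2 or 3 was. For 3 genes (*Pparg*, *Rxra* and *Rarg*) the CPM of the groups did not overlap, beside 26.2% of all tested genes, and 4 log2 fold changes were positive and 4 negative. As the same genotype difference chose the group, these calls are no test of it and nothing is read from the counts. The scaling matters for the small values: the median log2 fold change of all tested genes was -0.01 here and -0.23 on the log2(TPM + 1) scale, so that on the latter scale *Rara* at -0.31, *Rarg* at -0.44 and *Ppara* at -0.23 are to be read against that shift.

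Ordered by level, the genes differed between the genotypes mainly in the place of *Pparg*. By mean TPM, wild type ran from *Pparg* (27.2 ± 18.9, SD, n = 4) through *Rara* (20.1 ± 1.82), *Rxrb* (19.8 ± 2.82), *Rarg* (10.6 ± 0.717) and *Rxra* (8.14 ± 1.02) to *Ppara* (2.36 ± 0.657), *Ppard* (1.77 ± 0.185) and *Ppargc1a* (1.21 ± 0.319). *Pparg* lies within its summed spread of *Rara*, *Rxrb*, *Rarg* and *Rxra*, as *Rara* does of *Rxrb* and *Ppara* of *Ppard*. In the null the order was *Rara* (25.4 ± 4.59, SD, n = 3), *Rxrb* (19.9 ± 2.42), *Rarg* (14.9 ± 3.19), *Rxra* (13.3 ± 4.03), *Pparg* (3.83 ± 1.24), *Ppara* (2.90 ± 0.594), *Ppargc1a* (2.25 ± 0.762) and *Ppard* (1.70 ± 0.309). By these means, *Pparg* was at the level of the retinoid receptors in wild type and of the low PPAR genes in the null, and *Ppargc1b* was lowest in both groups. The wild-type mean stands for no single pup. In wild-type replicate 1, *Pparg* (4.87 TPM) was below each of the retinoid receptor genes, the lowest being *Rxra* (9.54 TPM). In wild-type replicate 4 it was above each of them, at 48.0 TPM. In the null, *Rara* and *Rxrb*, *Rxrb* and *Rarg*, *Rarg* and *Rxra*, and each neighbouring pair from *Pparg* to *Ppard* lie within their summed spreads.

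The genes that work with these receptors were followed through 6 hand-written lists, with 116 genes in all, of which 95 passed the filter. In all, 11 were higher in wild type (11.6%, beside 7.77% of all tested genes) and 3 were lower (3.16%, beside 3.33%), by the same edgeR test, which gives all adjusted p values that follow. This split depends on the scaling, since 2 were higher and 11 lower by limma on log2(TPM + 1). Their median log2 fold change was 0.05, against -0.01 over all tested genes. The number of higher calls rested on individual libraries. It was 20 without wild-type replicate 1, and 1 without wild-type replicate 2, wild-type replicate 3 or *Meioc*-null replicate 3. It was 2 without *Meioc*-null replicate 2 and 3 without wild-type replicate 4. The number over all tested genes moved likewise, from 1059 to 1440 without wild-type replicate 1 and to 113 without *Meioc*-null replicate 3.

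Among 18 coactivators and corepressors, all measured, 2 rose (11.1%, beside 7.77% of all tested genes) and 2 fell (11.1%, beside 3.33%). The median log2 fold change was -0.15. DESeq2 called 3 higher and 3 lower, and limma on log2(TPM + 1) called 1 higher and 4 lower. *Gps2*, a subunit of the NCoR corepressor complex, was at 44.3 to 48.2 CPM in wild type and 27.8 to 35.2 CPM in the null (log2 fold change 0.52, standard error 0.10, adjusted p = 0.018). *Sirt1*, a deacetylase that acts on PGC-1α and represses PPARG, was at 126.5 to 167 CPM in wild type and 103.5 to 108 CPM in the null (0.48, standard error 0.10, adjusted p = 0.019). The acetyltransferase gene *Kat2b* was lower in wild type (-0.37, standard error 0.08, adjusted p = 0.023), and so was *Nrip1*, which encodes the corepressor RIP140 (-0.29, standard error 0.08, adjusted p = 0.043). The corepressor gene *Ncor1*, with the highest TPM of the list, stood at -0.16 (adjusted p = 0.23), and *Hdac3*, the deacetylase of its complex, had 0.20 (adjusted p = 0.12), which became -0.03 on the log2(TPM + 1) scale.

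Of 17 other receptors that pair with an RXR or bind the same half-site, 11 passed the filter and 1 rose, with a median of -0.05; limma on log2(TPM + 1) called 0. It was *Nr2c2*, the orphan receptor TR4, at 140 to 181 CPM in wild type and 117 to 121 CPM in the null (log2 fold change 0.40, standard error 0.09, adjusted p = 0.026). The most abundant of them by TPM, the thyroid hormone receptor gene *Thra*, was at 97.4 to 104 CPM in wild type and 101.5 to 109 CPM in the null (-0.05, adjusted p = 0.67). The liver X receptor gene *Nr1h2* was at 58.6 to 64.7 CPM in wild type and 57.4 to 64.5 CPM in the null (adjusted p = 0.93). *Nr1i2*, *Nr1i3* and *Hnf4g*, receptors of liver and gut, were at or under 3 counts in every library.

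Genes of lipid uptake and storage that PPARG activates in adipocytes formed a further list. Of 24, 18 passed the filter and 2 were called, both higher in wild type (11.1%, beside 7.77% of all tested genes). By the same edgeR test, 8 of the 18 had an unadjusted p under 0.05, beside 4133 of all 13630 tested genes. Among the coactivators and corepressors it was 9 of 18. The median log2 fold change was 0.29, with 16 of 18 values above 0, beside 6694 of all 13630 tested genes. DESeq2 called 4 and limma on log2(TPM + 1) called 0. *Acsl1*, which activates long-chain fatty acids, was at 84.1 to 125 CPM in wild type and 67.1 to 77.4 CPM in the null (0.56, standard error 0.13, adjusted p = 0.024). *Gk*, glycerol kinase, was at 5.93, 9.09, 12.97 and 11.9 CPM in wild type and at 5.93, 4.85 and 5.11 CPM in the null (0.91, standard error 0.25, adjusted p = 0.047). The lipid droplet gene *Cidea* (0.16, adjusted p = 0.76) and the fatty acid transporter gene *Slc27a1* (0.01, adjusted p = 0.95) had the highest TPM of the list, and the sign of each turned on the log2(TPM + 1) scale.

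The targets *Fabp4* and *Scd1* were highest in another library than *Pparg*. *Fabp4*, the adipocyte fatty acid-binding protein, was counted at 0.32, 28.8, 7.09 and 2.02 CPM in wild type and at 0.37, 0.29 and 0.27 CPM in the null. *Scd1*, a fatty acid desaturase, was counted at 23.2, 141.5, 81.9 and 28.2 CPM in wild type and at 23.3, 16.6 and 19.4 CPM in the null. Both peaked in wild-type replicate 2, where *Pparg* was at 21.9 CPM, and not in wild-type replicate 4, where *Pparg* was highest. Their adjusted p values were 0.051 and 0.069, so neither was called by edgeR, while DESeq2 called *Fabp4*; both were picked out here after their values were seen. *Ucp1*, the uncoupling protein of brown fat, was at or under 3 counts in every library.

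Genes of fatty acid oxidation, the pathway linked to PPARA, had a median log2 fold change of 0.07. Of 28, 24 passed the filter and 2 were called, both higher in wild type, whereas limma on log2(TPM + 1) called 0 higher and 3 lower. *Slc27a2*, a fatty acid transporter and very long-chain acyl-CoA synthetase, was at 30.2 to 37.9 CPM in wild type and 20.9 to 24.5 CPM in the null (0.58, standard error 0.11, adjusted p = 0.016). *Acadvl*, very long-chain acyl-CoA dehydrogenase, was at 63.2 to 69.8 CPM in wild type and 45.9 to 58.0 CPM in the null (0.37, standard error 0.09, adjusted p = 0.034). *Hadhb* and *Acaa2*, of the later steps of mitochondrial β-oxidation, had the highest TPM (0.14, adjusted p = 0.28, and 0.10, adjusted p = 0.59), and both values fell below 0 on the log2(TPM + 1) scale. *Cyp4a10* and *Cyp4a14*, which PPARA activates in liver, were at or under 3 counts in every library.

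Among 16 factors through which PGC-1 proteins act, 14 passed the filter, 1 rose and 1 fell, with a median of 0.01; limma on log2(TPM + 1) called 0 higher and 3 lower. *Tfb1m*, a mitochondrial ribosomal RNA methyltransferase, was at 22.2 to 29.8 CPM in wild type and 17.4 to 19.4 CPM in the null (0.53, standard error 0.12, adjusted p = 0.025). *Mef2c*, a transcription factor coactivated by PGC-1α, was lower in wild type, at 43.9 to 53.9 CPM against 60.2 to 65.6 CPM (-0.36, standard error 0.09, adjusted p = 0.040). The mitochondrial transcription factor gene *Tfam* stood at -0.21 (adjusted p = 0.12) and *Gabpa*, a subunit of nuclear respiratory factor 2, 0.06 (adjusted p = 0.61), which turned negative on the log2(TPM + 1) scale.

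Of 13 genes activated by retinoic acid, 10 passed the filter and 3 were called, all higher in wild type, with a median of 0.40, whereas limma on log2(TPM + 1) called 1 higher and 1 lower; several of these were known from earlier results of the same libraries, so their direction is not independent evidence. *Meiosin*, listed as *Gm4969*, was at 144, 229, 266 and 251 CPM in wild type and at 33.9, 27.2 and 24.9 CPM in the null (2.95, standard error 0.22, adjusted p = 0.00058). *Stra6*, the receptor for retinol-binding protein, was at 31.5 to 63.8 CPM in wild type and 17.0 to 35.5 CPM in the null (1.02, standard error 0.28, adjusted p = 0.047). *Kit*, a marker of differentiating spermatogonia, was at 186 to 248 CPM in wild type and 146 to 163 CPM in the null (0.55, standard error 0.11, adjusted p = 0.018). *Stra8* had a log2 fold change of 1.14 and was not called (adjusted p = 0.095). Leaving out a library never cost *Meiosin* its call in 7 such fits, whereas each other called gene of the 6 lists was called in 1 to 3 of them.

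**Figure D4:**
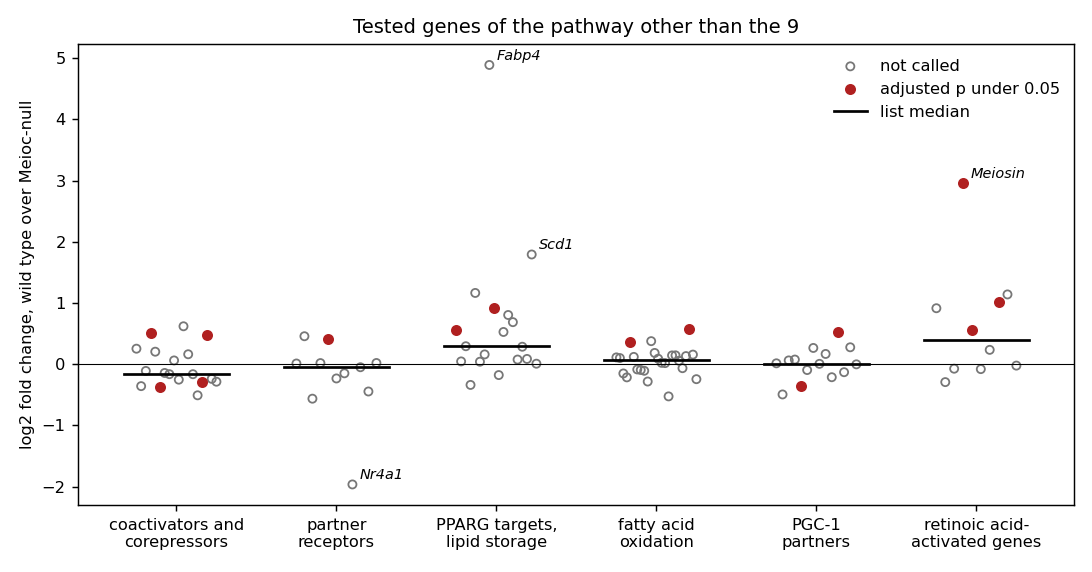
Log2 fold change of wild type over Meioc-null (vertical axis) for each tested gene of the 6 lists, with genes called at an adjusted p under 0.05 in red and the list median as a bar. The medians lie between -0.15 and 0.40, and Meiosin at 2.95 is the called gene farthest from 0.

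Cell type markers were read beside *Pparg*, since *Pparg* is also a gene of adipocytes. The summed CPM of 9 adipocyte markers was 22.5, 212, 75.4 and 35.5 in wild type and 29.0, 24.8 and 17.5 in the null. Of the 4 tested markers edgeR called none, and 3 had an unadjusted p under 0.05, beside 4133 of all 13630 tested genes. DESeq2 called 2 and limma on log2(TPM + 1) called 0. The defining marker *Adipoq* was at 0 counts in wild-type replicate 1 and at 9.15 CPM in wild-type replicate 2. *Cfd* was likewise at 0 in wild-type replicate 1 and at 23.0 CPM in wild-type replicate 2. In wild-type replicate 4, where *Pparg* reached 51.6 CPM, *Adipoq* was at 0.40 CPM and *Cfd* at 0.35 CPM. *Lipe* differed, at 13.99, 17.54, 21.28 and 20.03 CPM in wild type and at 15.49, 13.4 and 9.139 CPM in the null. Each other marker of the list was highest in wild-type replicate 2. Among them, *Plin1* overlapped between the groups, at 7.587, 15.24, 11.69 and 6.611 CPM in wild type and at 11.21, 10.36 and 7.616 CPM in the null. Without wild-type replicate 2 the log2 fold change of *Pparg* was 3.25, against 3.12 with it, and *Pparg* was not called in that fit. The adipocyte list shares 6 genes with the lipid storage list, whose summed CPM is also highest in wild-type replicate 2. The part of adipocyte RNA in the values of the lipid storage list and of *Pparg* was not tested.

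The summed early meiotic and general germ cell markers were higher in wild type, as *Pparg* was. The 8 early meiotic markers summed to 2478, 3430, 3366 and 3660 CPM in wild type and to 1335, 1114 and 1389 CPM in the null. All 8 were called higher in wild type, beside 7.77% of all tested genes. The list was written with earlier results of these data known, and the paper reports meiotic genes among those upregulated by MEIOC. These calls are therefore not independent evidence, and the sum does not measure cell numbers alone. In the early meiotic sum, wild-type replicate 1 was again the lowest of its group, although it stayed above the null libraries. Of 6 general germ cell markers, 4 were called higher (2137 to 2432 CPM summed in wild type, 1453 to 1613 CPM in the null). Undifferentiated spermatogonia markers summed to 127 to 152.5 CPM in wild type and 171 to 282 CPM in the null, highest in *Meioc*-null replicate 2, which also had the highest *Rxra* and *Rarg*; of 6 tested, edgeR called *Zbtb16* lower in wild type, while DESeq2 called 4 lower and limma on log2(TPM + 1) called 3. The part of the germ cell composition in the values of the 9 genes was not tested.

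Somatic markers were closer between the groups. Sertoli cell markers summed to 1014 to 1095 CPM in wild type and 1059 to 1115 CPM in the null, with *Gata4* called lower in wild type among 8. Peritubular myoid markers summed to 535 to 614 CPM and 509 to 593 CPM, with *Des* called lower among 5. None of 8 macrophage, 6 endothelial and 7 Leydig cell markers tested was called by edgeR. Of these, 2, 1 and 1 had an unadjusted p under 0.05, beside 4133 of all 13630 tested genes. DESeq2 called 1, 0 and 1, and limma on log2(TPM + 1) called 2, 1 and 3, all lower in wild type. Their summed levels were 346 to 356, 79.6 to 97.1 and 383 to 685 CPM in wild type, and 318 to 405, 85.2 to 102 and 436.5 to 753 CPM in the null.

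**Figure D5:**
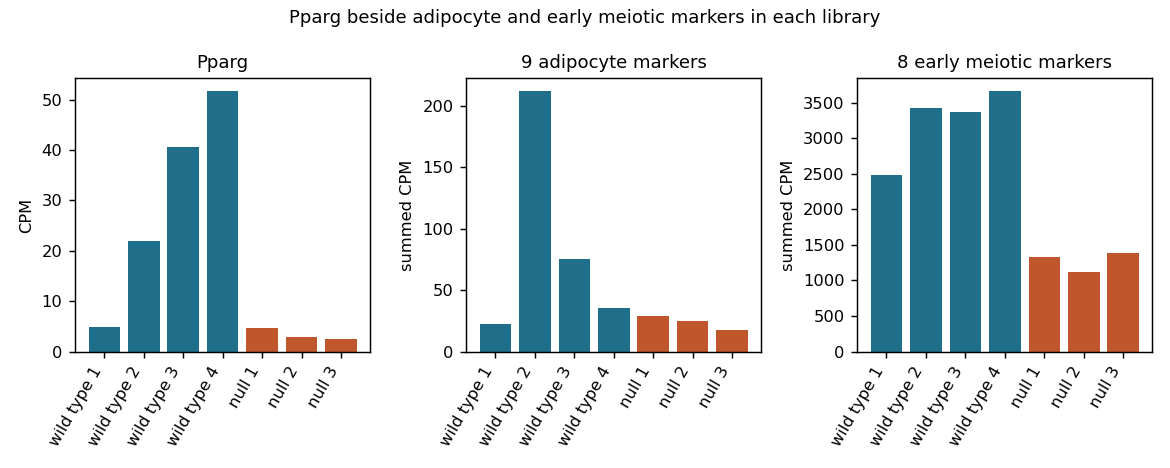
CPM of Pparg, summed CPM of 9 adipocyte markers and summed CPM of 8 early meiotic markers (vertical axes, from 0) in each library, wild type in blue and Meioc-null in orange. Pparg is highest in wild type 4 at 51.6 CPM, the adipocyte sum in wild type 2 at 212 CPM, and the early meiotic sum is at least 2478 CPM in every wild-type library.

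The genes whose pattern over the 7 libraries was most like that of *Pparg* were *Ppp4r4*, *Ipo5*, *Rundc3b*, *Ecsit*, *Kif23* and *Tcf20*, with Pearson correlations of log2(CPM + 0.5) from 0.994 to 0.997 across 13198 genes compared. All were lowest in wild type in replicate 1. *Ppp4r4*, a regulatory subunit of protein phosphatase 4, was at 20.5, 33.5, 46.1 and 53.1 CPM in wild type and at 19.5, 16.7 and 15.1 CPM in the null. *Kif23*, a kinesin of cytokinesis, was at 83.5, 152.6, 179.6 and 198.3 CPM in wild type and at 82.2, 69.4 and 75.9 CPM in the null. In both, wild-type replicate 1 was close to the null libraries, as for *Pparg*. This likeness follows from the choice of the genes by their correlation with *Pparg* in the same libraries, and is no separate observation. A correlation of at least 0.95 with *Pparg* was found for 366 genes, and the points share library depth and genotype. On the log2(TPM + 1) scale only *Kif23* of the 6 was again among the 6 closest.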

How the data were processed

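Total RNA of 4 wild-type and 3 *Meioc*-null samples, 1 pup each, was sequenced after ribosomal RNA depletion with a stranded kit. The authors trimmed reads with cutadapt 1.8 and quantified GENCODE Basic vM15 transcripts (mm10) with kallisto 0.44.0. They deposited estimated counts per protein-coding transcript, not normalized across libraries. The deposited TPM values were renormalized by the authors over protein-coding transcripts, so that the rise of an abundant class of transcripts lowers the TPM of the rest. Versions come from the submitters' processing notes.

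Of 43139 transcripts, 43020 matched 21928 genes of GENCODE vM21 (GRCm38); the 119 others (0.247% to 0.282% of counts) were not used. Gene sums of the counts were rounded, scaled by TMM and tested with edgeR 4.0.16 in R 4.3.3, without covariates, over the 13630 genes that reached a TPM of 1 in 3 or more libraries. DESeq2 1.42.0, limma 3.58.1, other scalings and filters, a replicate block and leaving out each library were alternatives. On simulated data with 200 of 13630 genes changed by a log2 of 2, edgeR recovered 192 with 10 false calls, DESeq2 193 with 27 and limma 192 with 8. There limma was run on log2(CPM + 1) and not on TPM. The planted change exceeds that of every called list gene except *Meiosin*, and genes were drawn independently. The simulation therefore does not bear on smaller changes or on differences between whole libraries. Depth was 12537852 to 20552702 counts per library; intervals and floors cover counting error only, since no molecular identifiers were used. The closest libraries of a group, wild-type replicates 2 and 3, differed by a chi-square of 7.95 per gene, so none was taken for a repeat of another.

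The 9 genes and all gene lists were chosen with earlier results of these data known. Named genes were the 9, their unexpressed relatives and *Pprc1*, *Meioc*, in each list the called genes and the 2 with the highest mean TPM, listed genes or markers at or under 3 counts in every library, called markers, and the 6 genes correlating best with *Pparg*, among those averaging 1 CPM or more in the lower group or 2 CPM or more overall. *Fabp4*, *Scd1*, *Adipoq*, *Cfd*, *Lipe* and *Plin1* are outside this rule and were added once their values were known. Promoter sequences are from RefSeq (GRCm38.p6); 8 of the 9 genes had at least 1 window.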

Additional observations from a re-analysis of the deposited data

How the results depend on the processing

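The 9 genes were chosen by this genotype contrast, so their calls describe the fits and are no test. *Pparg* and *Rxra* were called under DESeq2, limma on either TPM scale (pseudocount 1 or 0.1), RLE, library size alone, both other filters on low values and without wild-type replicate 1; without *Meioc*-null replicate 1, *Ppargc1a* was called as well. Neither was called when wild-type replicate 2, 3 or 4 was left out, when *Meioc*-null replicate 2 or 3 was, or under the replicate block. The replicate numbers only name the samples: the correlations of deviations between same-numbered libraries were -0.0437, -0.0966 and -0.21. With the replicate block 94 genes were called higher in wild type in place of 1059 and 15 lower in place of 454, and of the pathway genes 1 was higher in place of 11 and 0 lower in place of 3, over the libraries with a shared number. Leaving out each library gave 113 to 1440 higher and 18 to 837 lower among all genes, and 1 to 20 higher and 0 to 9 lower among pathway genes. On log2(TPM + 1), 440 genes were higher and 2082 lower, with 2 and 11 pathway genes; on log2(TPM + 0.1), 443 and 2063, again with 2 and 11. DESeq2 called 875 genes lower, 5 of them pathway genes, and no scaling beyond library size 904, with 6. The cause of these shifts was not tested.

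The 8 expressed genes kept their values within the spread in 109 of 120 alternatives; the 11 others were fits on TPM. There *Ppara* was at -0.23 and -0.31 with pseudocounts of 1 and 0.1, and *Rxrb* at -0.01 with both. Of 375 values of other named genes, 30 changed sign, none of them called: *Hdac3* at -0.0339 and -0.0342 on the TPM scales; *Hadhb* at -0.12 on both; *Acaa2* at -0.15 on both; *Gabpa* at -0.17 on both (-0.165 and -0.167) and -0.0149 with no scaling; *Nr1h2* at -0.23 on both, -0.066 with no scaling, -0.00913 with the replicate block, and -0.0338 to 0.0484 leaving out a library; *Cidea* at -0.13 on both, -0.10 with the replicate block, and -0.10 to 0.47 leaving out a library; *Slc27a1* at -0.23 and -0.24 (-0.231 and -0.235), -0.00114 with DESeq2, -0.00122 with RLE, -0.0683 with no scaling, -0.00723 with the replicate block, and -0.0276 to 0.0504 leaving out a library. *Ppargc1b*, *Rarb* and *Rxrg* had few counts and lay below the TPM filter.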
